A study of Mus musculus with 6 samples.

Results

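Interleukins and interleukin receptors were followed in epididymal white adipose tissue (eWAT) of obese mice whose fat pads had been transduced with Lmo3, a cofactor with LIM domains that takes part in transcription, or with a fluorescent control protein. Members were all genes whose single annotated symbol starts with Il and a digit, which gave 76 of 19938 genes. They comprised 36 ligands, 4 soluble antagonists or binding proteins (Il1rn, Il1f5, Il18bp and Il22ra2), 35 receptors or receptor subunits, and Il1bos, a transcript antisense to Il1b. Il1r1, Il1rl1 and Il2rg, which encode the IL-1 receptor, the IL-33 receptor and the common gamma chain, were not analysed here.

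The rAAV-Lmo3 group held 3 arrays from mice given a recombinant adeno-associated virus (rAAV) with Lmo3, and the rAAV-YFP group 3 arrays from mice given rAAV with yellow fluorescent protein (YFP). All mice were male C57BL6/J, had entered a high-fat diet (HFD) at 6 weeks of age and stayed on it for 12 weeks, and each array was hybridized with total RNA of 2 pooled mice. The sample titles name YFP as control, whereas the treatment text of the same samples names LacZ. The virus was injected into the fat pads after the diet had begun, and its CMV enhancer and chicken beta-actin promoter is not restricted to adipocytes. The values are RMA intensities (background-corrected, quantile-normalised and summarised per probe set), given as whole numbers on the linear scale.

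Interleukins are secreted proteins that carry signals between immune cells and the cells of the tissue around them. Most bind receptors made of a ligand-specific chain and a shared chain, such as gp130 for the IL-6 family or the common gamma chain for IL-2, IL-4, IL-7 and IL-15. These receptors signal through JAK kinases and STAT factors, whereas receptors of the IL-1 and IL-17 families signal through adaptor proteins to NF-kB. In visceral fat of obese animals interleukins are best known as products and targets of the macrophages that gather around adipocytes.

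Median intensity per array lay between 123 and 127.5. Arrays rAAV-Lmo3 1 and rAAV-YFP 2 stood apart, correlating on average at 0.986 and 0.988 with the others, against at least 0.990 for the remaining 4. Markers of adipocytes, macrophages, endothelial cells and fibroblasts were read on every array, whereas all 5 measured markers of epididymis epithelium were too dim to test. The summed intensity of 14 macrophage markers was 17809, 27318 and 31007 on rAAV-Lmo3 arrays 1 to 3, against 34012, 15524 and 23263 on rAAV-YFP arrays 1 to 3, so it was lowest on the arrays that stood apart. In bulk tissue, fewer cells of a type and less RNA per cell cannot be told apart. The probe set of Lmo3 itself read 24, 26 and 24 in rAAV-Lmo3, against 25, 24 and 24 in rAAV-YFP, far below the limit for dim genes given in the next paragraph. The arrays therefore did not show the transgene, whether its probes cover the transgene was not tested, and the arrays gave no check of the sample labels.

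Most interleukin ligands could not be read in this tissue, while most of the receptors measured could. A gene was called bright enough when its brightest probe set averaged at least 6.83 on the log2 scale over all arrays, an intensity of 114, which leaves out the dimmest 40% of genes. By that limit 9 of 36 ligands (25%), 2 of 4 soluble antagonists and binders and 19 of 35 receptors (54.3%) could be read, against 60% of all genes. A dim probe set may reflect weak probes as well as little transcript, so levels are compared only within a gene. The limit is a rank among all genes and not a measured background. Of the 30 members called bright enough, 27 reached it on every array, among them 7 of 9 ligands. Il17c, Il31 and Il2ra fell to 106, 110 and 110 on their lowest array. Whether readings so close to the limit hold signal above background was not tested.

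**Figure D1:**
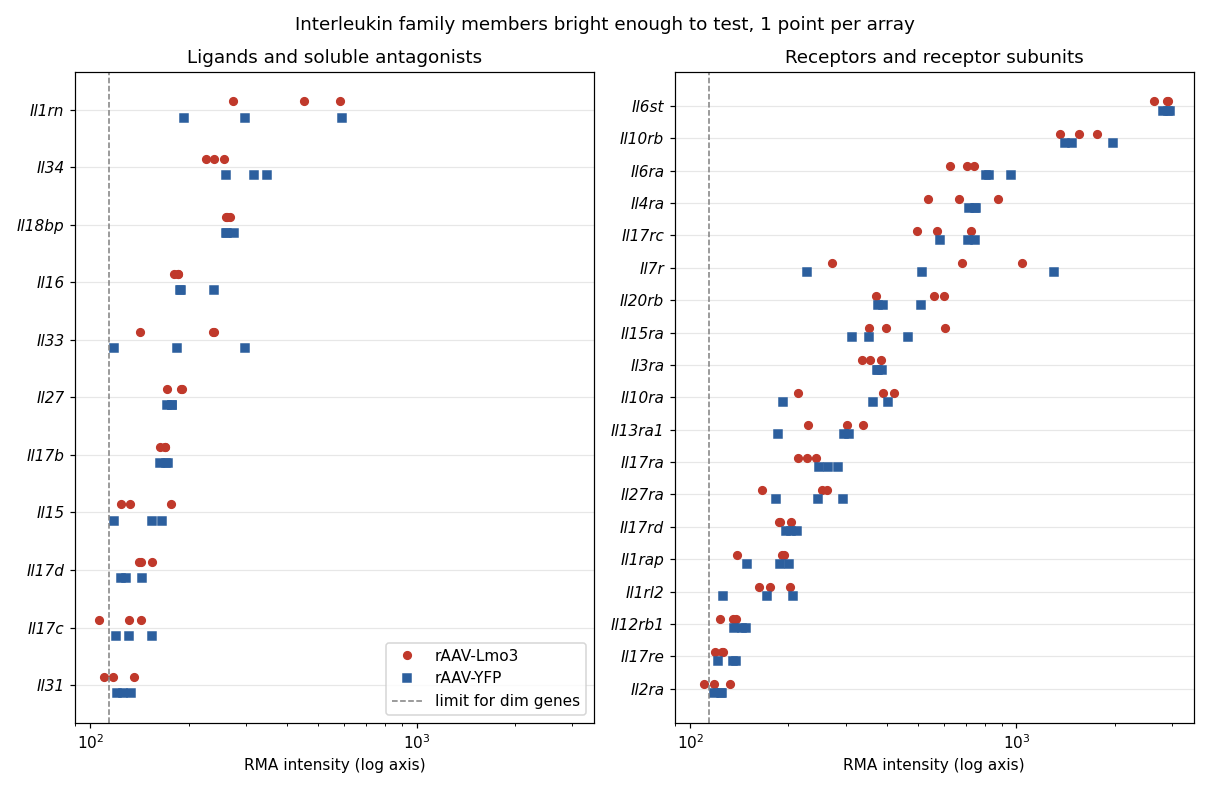
RMA intensity (horizontal log axis) of the 30 members bright enough to test, 1 point per array, with rAAV-Lmo3 as red circles above rAAV-YFP as blue squares and the limit for dim genes at 114 as a dashed line. Il7r and Il1rn spread widest within each group, while the groups of Il6ra, Il34, Il17ra and Il16 do not overlap.

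The 46 dim members read between 16 and 124 on all arrays, and 19 of them stayed under 50 on every array. Among them were the ligands most often discussed for obese fat. Il6, the prototype of the gp130 cytokines, read 16, 19 and 21 on rAAV-Lmo3 arrays and 17, 18 and 18 on rAAV-YFP arrays. Il10, an anti-inflammatory cytokine, read 27, 27 and 35 in rAAV-Lmo3, against 29, 22 and 25 in rAAV-YFP. Both genes sat at the lower edge of the array's range, where a step of 1 in the rounded values is already a visible share of the signal.

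Il1b, the inflammasome-processed IL-1 ligand, read 97, 61 and 66 in rAAV-Lmo3, against 63, 61 and 72 in rAAV-YFP. The single high value came from rAAV-Lmo3 1, and the other arrays of both groups overlapped. Il18, also released after inflammasome cleavage, lay just under the limit with 119, 99 and 122 in rAAV-Lmo3 and 104, 85 and 124 in rAAV-YFP. Of the dim members, 21 lay above 0 and 25 below 0 in the difference of the groups, none of these differences exceeded 0.366 on the log2 scale in size, and they were not tested.

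Of the dim members the groups did not overlap for Il18r1 and Il23a, 2 of 46 (4.35%), where 5.1% of all dim genes had groups without overlap. Il18r1, the ligand-binding chain of the IL-18 receptor, read 56, 52 and 56 in rAAV-Lmo3, against 64, 58 and 94 in rAAV-YFP. Il23a, the specific subunit of IL-23, read 47, 50 and 57 in rAAV-Lmo3, against 60, 60 and 62 in rAAV-YFP. In both cases the nearest arrays of the groups differed by only a few intensity units.

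Which ligands could be read followed no single family. Of the IL-1 family, 8 ligands and antagonists lie on chromosome 2. Of these only the antagonist Il1rn was bright, while the other 7 read between 25 and 97. Of the further IL-1 family ligands Il33 was bright and Il18 was not. The type 2 cytokines Il4, Il5, Il9 and Il13, products of T helper cells and innate lymphoid cells, were all dim (30 to 123), as were Il10, Il19, Il20 and Il24 of the IL-10 family (22 to 79). Of the ligands of the common gamma chain 1 of 6 was bright (Il15), and of the IL-17 family 3 of 6 (Il17b, Il17c and Il17d). Il17a and Il17f, the T-cell products of that family, were dim.

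No member passed the test across all genes. By limma, 0 of 11963 genes (0%) and 0 of the 30 members had an adjusted p below 0.05. At an unadjusted p under 0.05, 3 members were lower in rAAV-Lmo3 eWAT and 0 higher, where 2.4% of all tested genes were lower and 2.27% higher (4.66% in either direction). The 3 are Il6ra, Il34 and Il17ra. The groups did not overlap in 4 members, all lower in rAAV-Lmo3 (those 3 and Il16), where 5.95% of all genes were lower without overlap and 4.53% higher (10.5% in either direction). By the methods' t-test 2 members (Il6ra and Il17ra) were lower at the same unadjusted level, 0 were higher, and 0 passed after Benjamini-Hochberg adjustment.

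Il6ra, the IL-6 binding chain of the IL-6 receptor, read 625, 742 and 704 in rAAV-Lmo3, against 959, 804 and 824 in rAAV-YFP. Every rAAV-Lmo3 array was below every rAAV-YFP array, and rAAV-Lmo3 1 was the lowest and rAAV-YFP 1 the highest. On the log2 scale Il6ra averaged 9.43 ± 0.13 in rAAV-Lmo3 and 9.75 ± 0.14 in rAAV-YFP (SD, n = 3 each), a difference of -0.32 ± 0.11 (SE) or 1.25-fold lower. The limma p of Il6ra was 0.0215 unadjusted and 0.970 adjusted over all genes, and the exact two-sided permutation p was 0.1, the smallest that 3 arrays against 3 allow. Without rAAV-Lmo3 1 the difference of Il6ra was -0.25 (limma p 0.0569 unadjusted), and without rAAV-YFP 1 it was -0.24 (p 0.0714).

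Il6st, which encodes gp130, the signal-transducing partner of Il6ra, read 2637, 2913 and 2902 in rAAV-Lmo3, against 2955, 2815 and 2920 in rAAV-YFP, a difference of -0.04 ± 0.08 (SE) with overlapping groups. The difference between the changes of Il6ra and Il6st was not tested. Osmr and Lifr, which pair with gp130 for oncostatin M and leukaemia inhibitory factor, differed by -0.17 ± 0.18 and -0.16 ± 0.08, and the groups of Lifr did not overlap. Il27ra, which pairs with gp130 for IL-27, differed by -0.09 ± 0.23.

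Il34, a ligand of the macrophage growth factor receptor Csf1r, read 257, 239 and 226 in rAAV-Lmo3, against 261, 347 and 318 in rAAV-YFP. The groups were separated by only a few units, because rAAV-YFP 1 lay next to rAAV-Lmo3 1, while rAAV-YFP 2 and 3 were clearly higher. Il34 averaged 7.91 ± 0.09 in rAAV-Lmo3 and 8.26 ± 0.21 in rAAV-YFP on the log2 scale (SD, n = 3 each), a difference of -0.35 ± 0.12 (SE) or 1.28-fold lower. Its limma p was 0.0255 unadjusted and 0.970 adjusted, and its exact permutation p was 0.1. With single arrays left out the difference of Il34 ranged from -0.47 to -0.26, and its unadjusted limma p was 0.0645 without rAAV-Lmo3 2, 0.0822 without rAAV-Lmo3 3, 0.0764 without rAAV-YFP 2 and 0.0751 without rAAV-YFP 3.

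The other ligand of the same receptor, Csf1, read 760, 784 and 673 in rAAV-Lmo3, against 851, 796 and 932 in rAAV-YFP, with groups that did not overlap and a log2 difference of -0.22 ± 0.10 (SE). The receptor itself, Csf1r, which is also one of the macrophage markers, read 1414, 2429 and 2563 in rAAV-Lmo3, against 2543, 1252 and 2054 in rAAV-YFP, a difference of 0.14 ± 0.32. The limma p of Csf1 was 0.0654 unadjusted and 0.970 adjusted. So both ligands lay lower in each rAAV-Lmo3 array, while Csf1r spread over the same range in both groups. The nearest arrays were close for both ligands (784 and 796 for Csf1), and 5.95% of all genes were lower without overlap. A joint change of the 2 ligands was not tested.

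Il17ra, the shared chain of the IL-17 receptors, read 214, 243 and 228 in rAAV-Lmo3, against 265, 248 and 284 in rAAV-YFP. Its groups did not overlap, although rAAV-Lmo3 2 and rAAV-YFP 2 lay close together. Il17ra averaged 7.83 ± 0.09 in rAAV-Lmo3 and 8.05 ± 0.10 in rAAV-YFP on the log2 scale (SD, n = 3 each), a difference of -0.22 ± 0.09 (SE) or 1.16-fold lower. Its limma p was 0.0476 unadjusted and 0.970 adjusted, and its exact permutation p was 0.1. With single arrays left out the difference of Il17ra ranged from -0.27 to -0.17, and its unadjusted limma p was 0.118 without rAAV-Lmo3 1, 0.107 without rAAV-Lmo3 3, 0.0991 without rAAV-YFP 1 and 0.139 without rAAV-YFP 3.

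**Figure D2:**
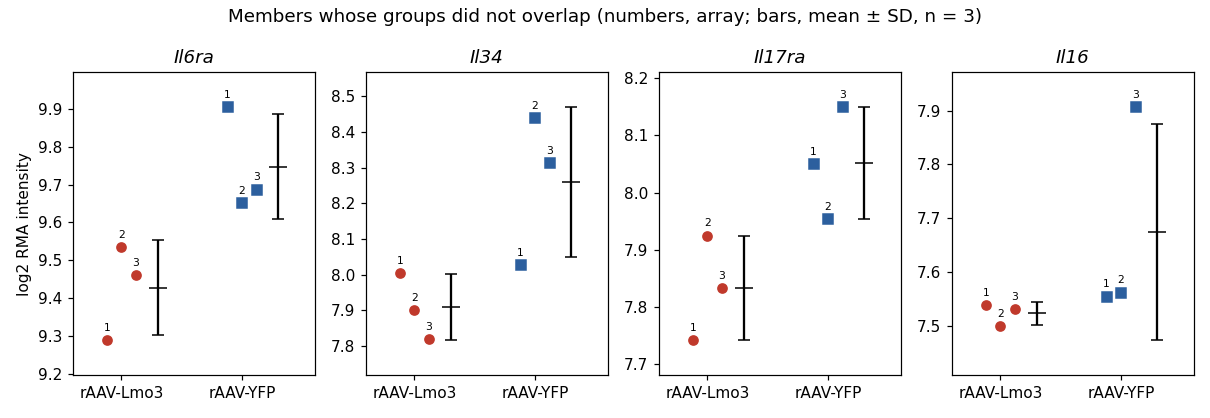
Log2 RMA intensity (vertical axes, which differ and do not start at 0) of Il6ra, Il34, Il17ra and Il16 on each array, numbered by replicate, with rAAV-Lmo3 in red left of rAAV-YFP in blue and bars for the mean ± SD (n = 3). All rAAV-Lmo3 arrays lie below all rAAV-YFP arrays, narrowly so for Il34, Il16 and Il17ra.

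All 4 receptors of the IL-17 family that could be read lay below 0, with differences between -0.22 and -0.08. Of all 19 receptors tested 13 lay below 0. The dim family receptor Il17rb read 96, 91 and 93 in rAAV-Lmo3, against 86, 93 and 88 in rAAV-YFP (0.07, not tested). Il17rc, which forms the receptor for IL-17A with Il17ra, read 725, 569 and 495 in rAAV-Lmo3, against 582, 747 and 712 in rAAV-YFP. Its groups overlapped, and the difference was -0.20 ± 0.17 (SE). With single arrays left out the difference of Il17rc ranged from -0.35 without rAAV-Lmo3 1 (limma p 0.0419 unadjusted) to -0.07 without rAAV-Lmo3 3. Il17re, the receptor chain for IL-17C, differed by -0.09 ± 0.08. Il17rd, also known as Sef, differed by -0.08 ± 0.08 on its brighter probe set, whereas its dimmer probe set differed by 0.02. The readable ligands of the family differed by 0.14 ± 0.09 for Il17d, -0.02 ± 0.07 for Il17b and -0.10 ± 0.15 for Il17c.

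Il16, a chemoattractant for CD4-positive cells, read 186, 181 and 185 in rAAV-Lmo3, against 188, 189 and 240 in rAAV-YFP. The groups of Il16 did not overlap, but 2 of the rAAV-YFP arrays lay within a few units of the rAAV-Lmo3 arrays and the third carried the difference of -0.15 ± 0.11 (SE). Without rAAV-YFP 3 the difference of Il16 was -0.04. The T-cell marker Cd3e, on which rAAV-YFP 3 was also the highest array, read 183, 245 and 220 in rAAV-Lmo3, against 268, 248 and 355 in rAAV-YFP (-0.42 ± 0.17). The other readable T and NK cell markers were Cd5, at 122, 120 and 116 in rAAV-Lmo3, against 122, 120 and 119 in rAAV-YFP (-0.01 ± 0.07), and Nkg7, at 141, 99 and 112 in rAAV-Lmo3, against 141, 129 and 160 in rAAV-YFP (-0.30 ± 0.15). Of the 10 markers measured 6 were highest on rAAV-YFP 3, Cd5 not among them, and the summed intensity of the 10 was 941 to 966 in rAAV-Lmo3, against 982 to 1275 in rAAV-YFP. Cd4, Cd8a and the NK cell receptor Ncr1 were too dim to read, and the part of these cells in the values of Il16 was not tested.

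**Figure D3:**
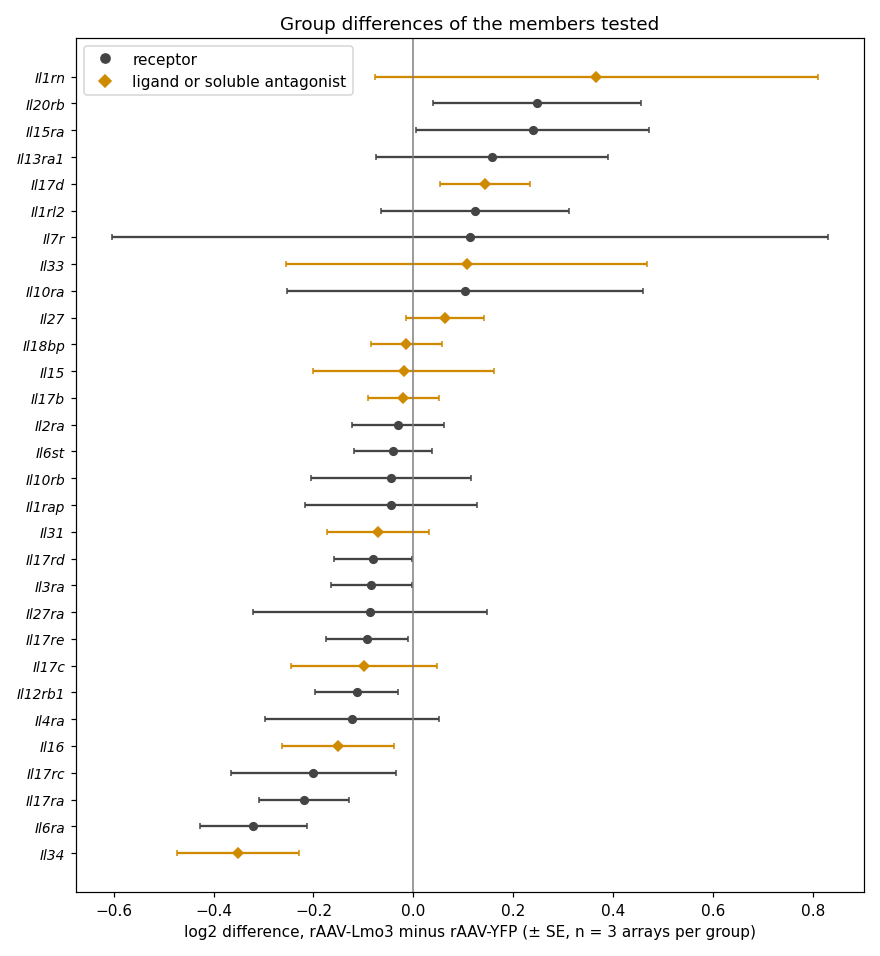
Log2 difference rAAV-Lmo3 minus rAAV-YFP with its SE (horizontal axis, n = 3 arrays per group) for the 30 members tested, 1 per line, with receptors as dark circles and ligands or soluble antagonists as orange diamonds. The values run from 0.37 for Il1rn to -0.35 for Il34, and the error is widest for Il7r.

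As groups, ligands and receptors lay close to 0. The 11 ligands and antagonists tested had a median log2 difference of -0.02, with 4 above and 7 below 0, and the 19 receptors had a median of -0.05, with 6 above and 13 below 0. The median over all 11963 genes tested was 0.00. For 18 of the 30 members the difference was smaller than its own SE, and for 28 of 30 the range within 1 of the groups was larger than the difference between them.

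Several members spread far more within the groups than between them. In 4 of 30 members (13.3%) the arrays of 1 group spanned more than 1 on the log2 scale, against 4.76% of all genes tested and 9 of the 14 macrophage markers. The 4 are Il7r, Il1rn, Il10ra and Il33, and in each the lowest array of its group was rAAV-Lmo3 1 or rAAV-YFP 2.

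Il7r, the ligand-binding chain of the IL-7 receptor, best known from lymphocytes, had the widest spread of all members. It read 272, 680 and 1043 in rAAV-Lmo3, against 1302, 228 and 514 in rAAV-YFP, a 3.83-fold range within rAAV-Lmo3 and a 5.71-fold range within rAAV-YFP. The group means did not differ beyond this spread, with a log2 difference of 0.11 ± 0.72 (SE). Without rAAV-YFP 2 the difference of Il7r was -0.50, and without rAAV-YFP 1 it was 0.76, so single arrays set its direction. Its ligand Il7 was dim, with 60, 55 and 67 in rAAV-Lmo3 and 50, 52 and 58 in rAAV-YFP.

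Il1rn, the secreted antagonist that blocks the IL-1 receptor, read 274, 453 and 584 in rAAV-Lmo3, against 590, 193 and 297 in rAAV-YFP. It had the largest difference of all members on the higher side, 0.37 ± 0.44 (SE), but its groups overlapped almost completely. Without rAAV-YFP 2 the difference of Il1rn was -0.01, and without rAAV-YFP 1 it was 0.80. The agonist Il1b did not share this order, since it was highest on rAAV-Lmo3 1, where Il1rn was low.

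Il7r, Il1rn and Il1rl2, a receptor for the IL-36 cytokines, ranked the 6 arrays in exactly the order of the summed macrophage markers. That order was rAAV-YFP 1, rAAV-Lmo3 3, rAAV-Lmo3 2, rAAV-YFP 3, rAAV-Lmo3 1 and rAAV-YFP 2 from high to low. The same order was found in 3 of 30 members (10%), in 1.37% of all genes tested and in 4 of the 14 macrophage markers, all of which contribute to the sum. The sum is of linear intensities, so its brightest markers, Lyz2, Cd68 and Gpnmb, weigh most. They are among these 4 markers. In a further 3 members, Il10ra, Il10rb and Il13ra1, only 1 of the 15 pairs of arrays was ordered differently. At most 1 pair differed in 20% of the members tested, in 5.07% of all genes tested and in 64.3% of the macrophage markers. The part of macrophages in these values was not tested.

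Il10ra, the ligand-binding chain for IL-10, read 214, 389 and 422 in rAAV-Lmo3, against 404, 193 and 363 in rAAV-YFP (0.10 ± 0.36, SE). Il13ra1, a receptor chain for IL-13 and IL-4, read 229, 303 and 339 in rAAV-Lmo3, against 307, 186 and 297 in rAAV-YFP (0.16 ± 0.23). Both were low on the arrays that stood apart, and their groups overlapped. Il10rb, the second chain of the IL-10 receptor that several related cytokines share, read 1363, 1555 and 1772 in rAAV-Lmo3, against 1981, 1406 and 1481 in rAAV-YFP (-0.05 ± 0.16), a narrower spread than that of Il10ra.

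Il33, an alarmin stored in nuclei of stromal and mesothelial cells, read 142, 238 and 239 in rAAV-Lmo3, against 184, 118 and 298 in rAAV-YFP. It was low on both arrays that stood apart like the genes above, but within rAAV-YFP its highest array was 3 and not 1, and the difference was 0.11 ± 0.36 (SE). The summed intensity of 6 mesothelial markers was also highest on rAAV-YFP 3, at 2063, against 839 and 1074 on the other rAAV-YFP arrays. In rAAV-Lmo3 the mesothelial sum was 987, 798 and 1113. Whether mesothelial cells contributed to the Il33 values was not tested.

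**Figure D4:**
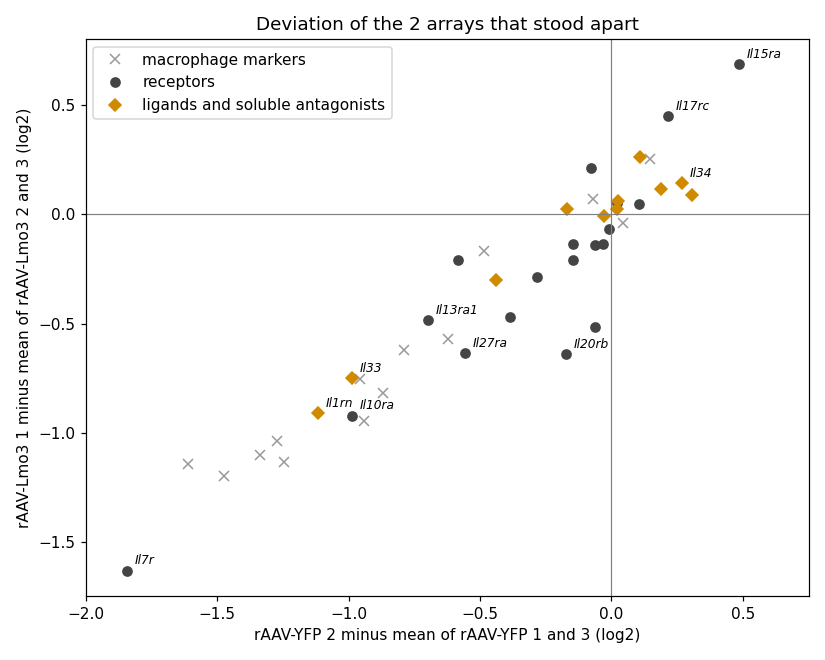
Deviation of rAAV-Lmo3 1 from the mean of rAAV-Lmo3 2 and 3 (vertical axis, log2) and of rAAV-YFP 2 from the mean of rAAV-YFP 1 and 3 (horizontal axis, log2) for 30 members and 14 macrophage markers (grey crosses). Il7r lies lowest on both axes, at -1.63 and -1.84, among or beyond the macrophage markers, and Il15ra lies highest on both, at 0.69 and 0.48.

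On both arrays that stood apart, 18 of 30 members were lower than in the rest of their groups and 10 were higher, where 35.1% and 32.8% of all genes tested did so. Receptors were lower on both in 14 of 19 cases and higher in 4, and ligands and antagonists were lower in 4 of 11 and higher in 6. Of the 14 macrophage markers 11 were lower on both and 1 higher, and of the 8 adipocyte markers 1 was lower and 6 were higher. These arrays were picked because they stood apart, so the counts are a description.

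Il15ra, which presents IL-15 to neighbouring cells, ran the other way. It read 603, 352 and 398 in rAAV-Lmo3, against 314, 465 and 352 in rAAV-YFP, so the arrays that stood apart were the highest of their groups. The difference of Il15ra between the groups was 0.24 ± 0.23 (SE), and without rAAV-Lmo3 1 it was 0.01, the lowest value with 1 array left out, and without rAAV-YFP 2 it was 0.40, the highest. Its ligand Il15 was low on the same arrays, with 124, 132 and 177 in rAAV-Lmo3 and 166, 118 and 154 in rAAV-YFP (-0.02 ± 0.18). Il17rc shared the order of Il15ra on the arrays that stood apart, with rAAV-Lmo3 1 and rAAV-YFP 2 highest in their groups.

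The genome sequence before the transcription start is shown for the members with these opposite array patterns and for Il6ra, the receptor with the smallest p. RefSeq (GRCm38.p6) gave a promoter window for 59 of the 76 members and 21 of the 30 tested. The windows shown here are the 250 bases before the first listed start, 5′ to 3′ on the strand of the gene. Capitals mark matches, on either strand (GAGGAA reads TTCCTC on the other), to the STAT dimer motif TTCNNNGAA, the AP-1 motif TGANTCA, the core GAGGAA that PU.1 and other ETS factors can bind, or the NF-kB consensus. None of the marked matches shares bases with another.
Il7r (chr15:9529877-9530126, minus strand): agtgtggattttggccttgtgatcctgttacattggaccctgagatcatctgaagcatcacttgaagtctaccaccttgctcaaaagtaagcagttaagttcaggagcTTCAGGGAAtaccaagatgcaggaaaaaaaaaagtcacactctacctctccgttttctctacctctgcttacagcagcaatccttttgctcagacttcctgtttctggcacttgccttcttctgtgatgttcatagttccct
Il1rn (chr2:24336610-24336859, plus strand, the first of 3 listed starts): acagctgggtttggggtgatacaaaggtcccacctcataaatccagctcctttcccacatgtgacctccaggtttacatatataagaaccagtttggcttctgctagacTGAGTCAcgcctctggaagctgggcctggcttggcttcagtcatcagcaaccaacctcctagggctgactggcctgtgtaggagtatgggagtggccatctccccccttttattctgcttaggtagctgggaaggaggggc
Il15ra (chr2:11705043-11705292, plus strand, the first of 2 listed starts): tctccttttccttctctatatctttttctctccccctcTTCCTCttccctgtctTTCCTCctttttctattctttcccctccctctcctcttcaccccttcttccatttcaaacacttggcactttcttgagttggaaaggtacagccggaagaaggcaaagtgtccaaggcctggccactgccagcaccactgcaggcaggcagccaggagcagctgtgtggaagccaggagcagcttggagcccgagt
Il6ra (chr3:89913197-89913446, minus strand): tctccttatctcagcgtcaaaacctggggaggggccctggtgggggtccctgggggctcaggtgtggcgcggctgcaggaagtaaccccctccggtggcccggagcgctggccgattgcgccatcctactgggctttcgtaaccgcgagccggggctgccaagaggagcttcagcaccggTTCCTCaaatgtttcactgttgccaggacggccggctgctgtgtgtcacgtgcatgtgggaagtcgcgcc
Il7r held a STAT dimer motif, Il1rn an AP-1 motif, Il15ra 2 GAGGAA cores and Il6ra 1 such core. The GAGGAA cores were all on the other strand. No NF-kB consensus was in these windows. By gene, the STAT dimer motif was in a window of 15.3% of the 59 members and of 8.13% of all 27025 genes in the table. The corresponding shares were 23.7% and 7.82% for AP-1, 33.9% and 25.9% for GAGGAA, and 6.78% and 4.46% for the NF-kB consensus. Of all 32851 windows, 7.02%, 6.75%, 23.3% and 3.9% held these motifs in the same order. A match is a description of the letters and not a binding site. The shares of the 59 members include members too dim to test. Of the 21 tested members with a window only Il7r held the STAT dimer motif. In the same 21 members AP-1 was found in 3, GAGGAA in 5 and the NF-kB consensus in 2. Il15ra held an AP-1 motif before its second listed start.

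Among the remaining readable receptors, Il4ra, a receptor chain for IL-4 and IL-13, read 534, 875 and 665 in rAAV-Lmo3, against 752, 716 and 745 in rAAV-YFP. The rAAV-Lmo3 arrays lay on both sides of the tight rAAV-YFP values, and the difference was -0.12 ± 0.17 (SE). Without rAAV-Lmo3 2 the difference of Il4ra was -0.31 (limma p 0.0492 unadjusted), and without rAAV-Lmo3 1 it was 0.05. Il4ra did not follow the order of the macrophage markers, with 5 of the 15 pairs of arrays ordered differently. Genes induced by IL-4 and IL-13 in macrophages lay above 0 in 2 and below 0 in 3 of 5 tested cases, with a median of -0.05 and 0 past an unadjusted p under 0.05. Arg1 and Chil3, classical genes of that response, were too dim to read.

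Il20rb, a shared chain of the receptors for IL-19, IL-20 and IL-24, was measured by 3 probe sets that agreed in direction. On the brightest it read 372, 599 and 560 in rAAV-Lmo3, against 377, 389 and 509 in rAAV-YFP, with a difference of 0.25 ± 0.21 (SE), and the others differed by 0.31 and 0.27. The array rAAV-Lmo3 1 lay with the rAAV-YFP arrays. With single arrays left out the difference of Il20rb ranged from 0.12 without rAAV-Lmo3 2 (limma p 0.621 unadjusted) to 0.46 without rAAV-Lmo3 1, where the limma p was 0.0207 unadjusted and 0.831 adjusted. Its ligands Il19, Il20 and Il24 were all dim.

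Il18bp, the soluble protein that binds and neutralises IL-18, read 263, 261 and 268 in rAAV-Lmo3, against 276, 263 and 261 in rAAV-YFP, a difference of -0.01 ± 0.07 (SE). Il3ra differed by -0.08 ± 0.08, Il12rb1 by -0.11 ± 0.08, Il2ra by -0.03 ± 0.09, Il27 by 0.06 ± 0.08 and Il31 by -0.07 ± 0.10. Il1rap, the shared accessory chain of the IL-1, IL-33 and IL-36 receptors, read 139, 191 and 194 in rAAV-Lmo3, against 189, 149 and 201 in rAAV-YFP (-0.05 ± 0.17), and so was low on the arrays that stood apart. Il1r2, a decoy receptor for IL-1, was dim with 74, 89 and 85 in rAAV-Lmo3 and 78, 64 and 84 in rAAV-YFP.

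Genes that carry interleukin signals inside the cell were read from lists. Of 8 tested JAK and STAT genes 2 lay above and 6 below 0, with a median of -0.06 and 0 past an unadjusted p under 0.05. Stat5a, a transducer for IL-2 family receptors among others, was the only member of that list whose groups did not overlap. It read 624, 618 and 547 in rAAV-Lmo3, against 531, 524 and 530 in rAAV-YFP (0.17 ± 0.08, SE, limma p 0.0772 unadjusted and 0.970 adjusted). Among all genes tested 10.5% had groups without overlap in either direction. Of 12 feedback genes (the SOCS family with Cish, the SUMO ligases Pias1 and Pias3, and the phosphatases Ptpn6 and Ptpn11) 8 lay above and 4 below 0, with a median of 0.05 and 0 past that level. Socs3, the feedback inhibitor of gp130 signalling, read 231, 403 and 348 in rAAV-Lmo3, against 255, 227 and 357 in rAAV-YFP (0.22 ± 0.25).

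Of 19 genes of IL-1 and IL-17 receptor signalling 10 lay above and 9 below 0, with a median of 0.00. At an unadjusted p under 0.05, where 2.4% of all tested genes were lower and 4.66% in either direction, 1 of the 19 was lower. That gene was Rela, which encodes the p65 subunit of NF-kB and read 921, 991 and 999 in rAAV-Lmo3, against 1088, 1236 and 1107 in rAAV-YFP (-0.24 ± 0.09, SE, limma p 0.0299 unadjusted and 0.970 adjusted). Of the genes that process IL-1 family ligands, 5 of 9 could be read and all 5 lay above 0, with a median of 0.15 and 0 past that level. Casp1, the protease that cleaves the Il1b and Il18 products, read 443, 622 and 843 in rAAV-Lmo3, against 823, 347 and 589 in rAAV-YFP (0.16 ± 0.35), and like all 5 it was low on both arrays that stood apart.

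Receptor subunits of the same families that carry other names lay on both sides of 0. Of 8 tested, 2 lay above and 6 below 0, with a median of -0.11, and 6 of the 8 were low on both arrays that stood apart. Csf2rb, the shared chain of the IL-3 and IL-5 receptors, differed by -0.13 ± 0.19 (SE), and Crlf2, which pairs with Il7r for thymic stromal lymphopoietin, by 0.04 ± 0.08. Of 8 ligands or ligand subunits with other names Csf1, Clcf1 and Ebi3, the secreted subunit that IL-27 shares with IL-35, could be read, while Tslp, Csf2, Lif, Osm and Ctf1 were dim. Ebi3 read 145, 172 and 197 in rAAV-Lmo3, against 187, 118 and 185 in rAAV-YFP (0.09 ± 0.21, SE), with groups that overlapped.

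A few members lack a probe set of their own. Probe sets annotated with Il22 together with Iltifb read 44 to 48 in rAAV-Lmo3 and 44 to 51 in rAAV-YFP. A probe set annotated with Il4i1 together with Il4i1b, which encode an amino acid oxidase, read 103, 108 and 126 in rAAV-Lmo3, against 102, 116 and 112 in rAAV-YFP. These were not counted as members, and all lay close to or under the limit for dim genes.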

How the data were processed

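Affymetrix Gene ST arrays for mouse were run on total RNA of eWAT, 2 mice pooled for each array. The deposited values are intensity values per probe set, which the authors summarised by RMA in Affymetrix Expression Console 1.1. They are linear whole numbers, and log2 was taken here. Groups came from the sample titles. Of 35556 probe sets 21789 carried 1 gene symbol, 1621 several and 12146 none, and the 76 members had 80 probe sets. All 76 symbols were in a reference table of GRCm38.p6.

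Each gene was represented by its brightest probe set, taken by mean log2 value across the 6 arrays. The dimmest 40% (7975 genes) were left out, and the other 11963 entered a limma fit (version 3.58.1, R 4.3.3) with lmFit and eBayes, a step tested on simulated data. Tests were two-sided, adjusted by Benjamini-Hochberg, with a threshold of 0.05. Values of dim members come from the same fit without that filter. Differences are rAAV-Lmo3 minus rAAV-YFP with the moderated SE. Replicates are separate pools, and the number of arrays limits the precision. No batch or scan date was given in the sources used here.

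Members and lists were chosen with earlier results of these data known. Named members are those with an unadjusted p under 0.05, the 5 brightest ligands or antagonists, the 8 brightest receptors, and members known from fat biology. Others were named by their level or after their values were seen. Alternatives were other scalings, priors and weights, the replicate number as a block, each array or both arrays that stood apart left out, other filters, the mean over probe sets, and the methods' t-test. The comparison of array order with the macrophage markers was added after the values were seen.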

Additional observations from a re-analysis of the deposited data

How the results depend on the processing

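With 3 arrays a group single arrays weigh heavily, and rounding to whole numbers is coarse for dim genes. Across all alternatives 0 members passed the adjusted test. The count of members lower at an unadjusted p under 0.05 was 3 in the analysis reported and ranged from 1 to 3 with single arrays left out (1 without rAAV-Lmo3 3, where Il6ra was left, 1 without rAAV-YFP 1, where Il34 was left, and 1 without rAAV-YFP 3, where Il6ra was left). Without rAAV-Lmo3 1 the lower members were Il34 and Il17rc, and without rAAV-Lmo3 2 Il4ra joined Il6ra and Il17ra. It was 4 with no filter on dim genes, which adds Il23a. The count of members higher at that level was 0 and became 1 (Il20rb) with array weights and without both rAAV-YFP 2 and rAAV-Lmo3 1, and ranged from 0 to 1 with single arrays left out (Il20rb without rAAV-Lmo3 1).

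Same-numbered arrays had correlations of -0.55, -0.40 and 0.26 in their deviations from the group means, against 0.68 for rAAV-Lmo3 1 with rAAV-YFP 2. Within a group these deviations sum to 0, and the arrays that stood apart weigh heavily in them. The correlations therefore cannot decide whether same-numbered pools were handled together. With the replicate number as a block 0 members were lower and 0 higher at an unadjusted p under 0.05.

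The median difference of ligands and antagonists (-0.02) was 0.0027 with no filter on dim genes and ranged from -0.0239 to 0.0109 with single arrays left out. That of receptors (-0.05) ranged from -0.11 to 0.01. Il6ra, Il34, Il17ra, Il16, Il17rc, Il15ra and Il20rb kept their direction under every alternative run on them. Il4ra was 0.0045 with array weights and 0.0273 without both arrays that stood apart, and Il1rap was 0.0195 with array weights.

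With single arrays left out, the log2 difference ranged from -0.23 to 0.41 for Il10ra, from -0.14 to 0.11 for Il10rb, from -0.0757 to 0.319 for Il13ra1, from -0.18 to 0.0812 for Il15, from -0.0294 to 0.0109 for Il18bp, from -0.17 to 0.11 for Il1rap, from -0.0057 to 0.80 for Il1rn, from -0.22 to 0.45 for Il33, from -0.31 to 0.0487 for Il4ra, from -0.0661 to 0.0057 for Il6st and from -0.50 to 0.76 for Il7r. The direction of these 11 members changed with the arrays used.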
